A study of Homo sapiens with 12 samples.

Results

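The genes described here encode the vacuolar-type proton pump (V-ATPase) and the nutrient-sensing machinery that sits beside it on the lysosome. They were chosen by name: every gene of the deposited table whose symbol starts with ATP6V, together with ATP6AP1, ATP6AP2, TCIRG1, LAMTOR1 to LAMTOR5, the 4 Rag GTPase genes, FLCN, FNIP1, FNIP2, TFEB, TFE3, MITF and SLC38A9. The rule took 43 of 19973 genes in the table, and it reads symbols only, although the set was proposed with earlier results of these data known. 2 of the 43, ATP6V1G2-DDX39B (a readthrough transcript) and ATP6V1FNB (a neighbour of ATP6V1F), carry the name without encoding a pump subunit.

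The V-ATPase acidifies lysosomes. Its cytosolic V1 sector holds the catalytic head of A and B subunits and the stalks (C to H), and its membrane V0 sector holds the proton channel of the a subunit and a rotating ring of c and c″ subunits with d and e. Ragulator (LAMTOR1 to LAMTOR5) anchors the Rag GTPases to the lysosomal membrane, where RagA or RagB pairs with RagC or RagD and recruits mTORC1 when amino acids are plentiful. Folliculin (FLCN), with FNIP1 or FNIP2, activates RagC and RagD, and SLC38A9 reports lysosomal arginine to the Rags. TFEB, TFE3 and MITF are related transcription factors that RagC and RagD hold at the lysosome in fed cells; in the nucleus they bind E-box motifs of lysosomal genes.

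H460 and A549 are established human non-small cell lung cancer lines, labelled WT. The study describes both lines as homozygous for inactive KEAP1 mutations. Each line was left untreated (control) or treated with 10 µM isovalerylspiramycin I (ISP-I), a macrolide antibiotic component, for 48 h, and 3 RNA-seq libraries were listed per group. Whether the untreated cells received the solvent is not given in the sources used here, nor whether the 3 replicates per group that the study's RNA-seq methods name came from separate cultures; its general statement on independent experiments does not name these libraries, so the spread between them may be technical. Values are FPKM (fragments scaled to gene length and to library size) in bulk RNA, in which fewer cells and less RNA per cell cannot be told apart.

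Libraries held 14225849 to 17874422 reads. The epithelial keratins KRT8 and KRT18 stood at 66.9 FPKM or more in every library, whereas EPCAM and CDH1 were at 0.15 FPKM or less in every H460 library. CD3E was at 0 in all 12 libraries, and summed leukocyte markers (PTPRC, CD3E, CD14) reached at most 6.43 FPKM, all of it CD14, in untreated H460. The summed endothelial markers stayed at 0.37 FPKM or less, and the summed fibroblast markers at 1.32 FPKM or less. In H460 the median change of all tested genes was -0.15 on the log2(FPKM + 1) scale and moved to 0.01 under median-of-ratios scaling, which raised the share of higher genes among all calls from 40.8% to 56.5%.

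H460 ISP-I library 3 stood apart from libraries 1 and 2 of its group, and so did A549 control library 3. In H460 ISP-I the median absolute log2 difference of library 3 was 0.178 from library 1 and 0.229 from library 2. Libraries 1 and 2 differed by 0.142 there. In A549 control the same values were 0.164, 0.167 and 0.078. Short genes were read higher in H460 ISP-I library 3: its median difference from the mean of libraries 1 and 2 was 0.29 on the log2(FPKM + 1) scale over 1348 genes under 2000 bases and -0.13 over 6832 genes over 5000 bases. In A549 control library 3 the same medians were 0.11 and -0.07. Among the 39 members tested in H460, library 3 was more than 1.5 times the higher of the other two libraries for 7: ATP6V0B, ATP6V0C, ATP6V0E1, ATP6V1G1, LAMTOR2, LAMTOR4 and LAMTOR5. For these genes values are given with and without it.

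**Figure D1:**
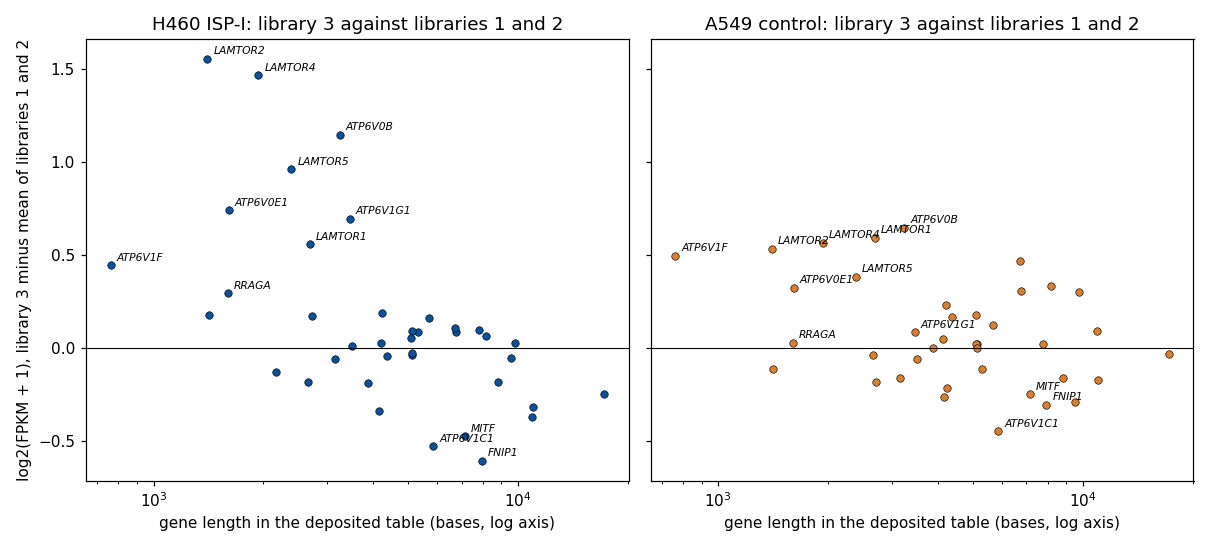
Difference between library 3 and the mean of libraries 1 and 2 on the log2(FPKM + 1) scale (vertical axis) against gene length in bases (horizontal log axis), for each tested member in H460 ISP-I (left) and A549 control (right). LAMTOR2 and LAMTOR4, both under 2000 bases, lie highest on the left, and the longer FNIP1, MITF and ATP6V1C1 lie below 0.

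The promoters of these genes bear on the MiT/TFE factors, since E-boxes (CACGTG, its own reverse complement) are where these and other basic helix-loop-helix proteins bind. RefSeq windows (GRCh38.p14, from 250 bases before to 50 after the start) were matched by symbol for 33 of the 43 members; RRAGD, RRAGA and ATP6V1A were among the 10 without an entry. CACGTG was present in a window of 9 of the 33 (27.3%), against 10.98% of 15166 genes of the table with a window and 7.26% of all 35116 windows. The longer form TCACGTGA, which contains CACGTG, was present in 3 of the 33 (ATP6V0D1, ATP6V1G1 and RRAGB; 9.09%), against 1.69% of the genes of the table with a window and 0.98% of all windows. The stretches below are shown because they belong to genes whose RNA changed in H460. Capitals mark the motif, each is written 5′ to 3′ on the strand of its gene, and a letter match is not evidence of binding.
ATP6V0D1, chr16:67481182-67481253, minus strand: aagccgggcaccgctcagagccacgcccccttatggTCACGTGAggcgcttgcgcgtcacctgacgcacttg
RRAGB, chrX:55717687-55717748, plus strand: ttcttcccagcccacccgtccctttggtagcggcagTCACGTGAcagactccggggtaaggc
ATP6V1G1, chr9:114587699-114587728, plus strand: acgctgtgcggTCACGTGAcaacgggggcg
FNIP1, chr5:131797069-131797148, minus strand: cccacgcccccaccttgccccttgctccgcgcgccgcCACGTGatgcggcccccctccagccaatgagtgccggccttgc
RRAGC, chr1:38859842-38859921, minus strand: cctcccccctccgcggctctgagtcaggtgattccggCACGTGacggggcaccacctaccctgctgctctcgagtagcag
ATP6V0E2, chr7:149872859-149872938, plus strand: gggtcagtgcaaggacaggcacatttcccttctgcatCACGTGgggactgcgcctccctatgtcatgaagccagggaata
The ATP6V1G1 stretch runs into the gene as the table places it and is therefore kept to 30 bases. The first 5 genes were higher after ISP-I in H460 and the last was lower, so the motif was found with both directions. The C that opens CACGTG lay 59 bases before the RefSeq start in ATP6V0D1, 25 in RRAGB, 58 in ATP6V1G1, 94 in FNIP1 and 112 in RRAGC. FNIP1 held a further copy 175 bases before its start and RRAGB one 115 bases before and another 7 bases after. The other 3 members with the motif, ATP6V0B, LAMTOR1 and LAMTOR4, were not called in either line. Of the 24 members with a window but no motif, 7 were called higher, 2 lower and 12 not called in H460. The rest were not tested. In A549, 2 of the 9 members with the motif and 4 of the 24 without it were called higher, and none lower. Of all tested genes, 10.5% were called higher in H460 and 4.2% in A549. Whether the motif goes with a change was not tested.

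Each comparison asked which members changed after ISP-I within a line. A gene was called when its mean log2(FPKM + 1) differed by more than 1 (a fold of 2 on that scale, which understates low genes) with an adjusted p below 0.05 in limma over all tested genes. In H460, 16 of the 39 tested members were called higher and 3 lower, where 10.5% and 15.2% of all 13423 tested genes were. In A549, 7 of 39 were called higher and none lower, where 4.2% and 3.51% of 13705 genes were. At any fold, 22 and 7 members in H460 had an adjusted p below 0.05 in the higher and lower direction, beside 27.6% and 41.5% of all genes; in A549 the counts were 21 and 6, beside 30.5% and 27.0%. The median member differed by 0.55 in H460 and 0.28 in A549 on the log2 scale, and the median of all tested genes by -0.15 and 0.02. 6 members were called higher in both lines: RRAGC, RRAGD, FLCN, FNIP1, MITF and ATP6V1D. Median-of-ratios scaling gave 17 higher and 3 lower members in H460, beside 1954 higher and 1504 lower of all 13423 genes.

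**Figure D2:**
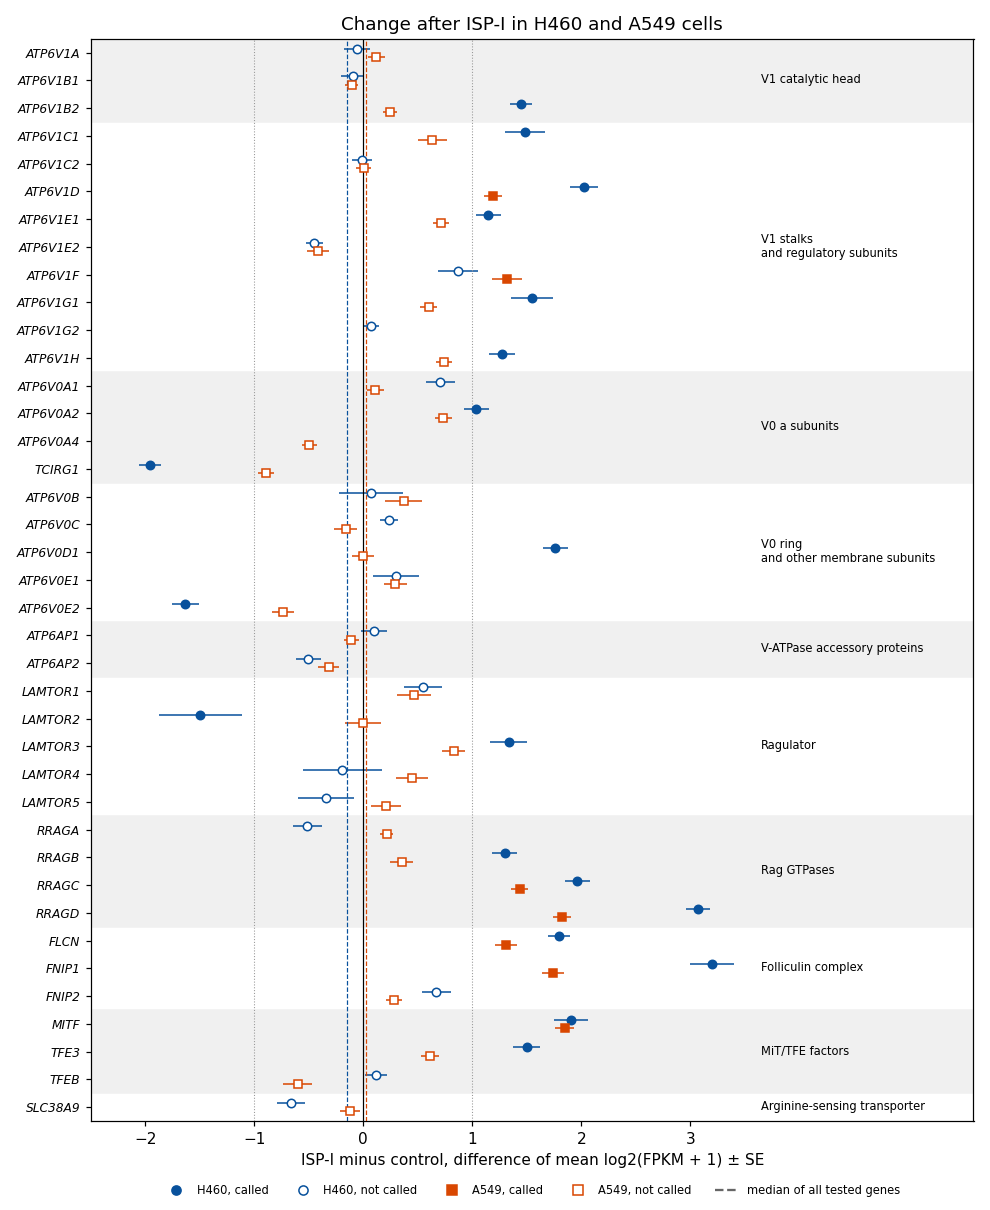
Change after ISP-I (difference of mean log2(FPKM + 1), ± SE) for each tested member in H460 (circles) and A549 (squares), grouped by complex; filled symbols were called, dotted lines mark a difference of 1 and dashed lines the median of all tested genes. RRAGC, RRAGD, FLCN, FNIP1 and MITF lie to the right of 1 in both lines, and TCIRG1, ATP6V0E2 and LAMTOR2 lie to the left of -1 in H460.

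The RagC and RagD GTPases rose in both lines, and RRAGD (chr6:89364616-89412273, hg38) changed most among the Rag genes. In H460 its 3 control libraries held 0.341, 0.491 and 0.474 FPKM and its ISP-I libraries 10.3, 11.5 and 11.4. In A549 the controls held 1.20, 1.23 and 1.502 FPKM and the treated libraries 7.23, 6.88 and 7.36. Treated and control libraries did not overlap in either line, and the lowest treated value was in A549. The mean went from 0.435 ± 0.082 to 11.1 ± 0.647 FPKM (SD, n = 3) in H460, a 25.4-fold ratio, and from 1.31 ± 0.167 to 7.16 ± 0.248 FPKM in A549, a 5.46-fold ratio. On the log2(FPKM + 1) scale the changes were 3.07 ± 0.11 (SE) with an adjusted p of 2.69e-07 in H460 and 1.82 ± 0.08 with 1.61e-06 in A549.

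RRAGC, whose product takes the same place in the Rag heterodimer, held 1.01, 1.22 and 1.15 FPKM in the H460 controls and 6.69, 8.04 and 7.19 after ISP-I. In A549 its controls held 1.59, 1.42 and 1.51 FPKM and its treated libraries 5.59, 5.47 and 6.28. The treated libraries of both lines thus lay between 5.47 and 8.04 FPKM, well clear of every control. The changes were 1.96 ± 0.11 in H460, with an adjusted p of 1.93e-06, and 1.43 ± 0.08 in A549, with an adjusted p of 4.5e-06.

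RRAGB was called in H460, where its mean went from 4.85 ± 0.367 to 13.4 ± 1.14 FPKM (log2 change 1.30). In A549 it stood at 5.24 ± 0.626 and 6.97 ± 0.817 FPKM (log2 change 0.35), and the difference between the lines, 0.94 with an adjusted p of 0.00022, was short of the fold threshold. RRAGA, the far more abundant partner, stood at 41.8 ± 3.54 FPKM in H460 controls and 29.0 ± 3.87 after ISP-I, a log2 change of -0.52 with an adjusted p of 0.0083, short of the fold threshold. That change was -0.24 (adjusted p = 0.16) in limma under median-of-ratios scaling and -0.25 (adjusted p = 0.16) with voom. In A549 RRAGA stood at 61.1 ± 0.944 and 71.1 ± 2.12 FPKM; its log2 change was 0.22 with an adjusted p of 0.016, which reached 0.074 when ISP-I library 3 was left out.

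In the folliculin complex, FLCN and FNIP1 rose in both lines. FNIP1 (chr5:131641714-131797063) held 2.38, 1.95 and 1.84 FPKM in the H460 controls and 26.6, 36.5 and 20.1 after ISP-I. In A549 it held 4.33, 4.63 and 3.44 FPKM in the controls and 16.6, 14.96 and 16.5 after ISP-I. The treated H460 libraries were spread widely, with library 3 lowest, but every one lay above all libraries of the other 3 groups. The log2 change was 3.20 ± 0.20 in H460 with an adjusted p of 2.95e-06, a 13.5-fold ratio of mean FPKM, and 1.74 ± 0.10 in A549 with an adjusted p of 5.21e-06, a 3.88-fold ratio.

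FLCN (chr17:17212212-17237188) held 1.73, 1.85 and 1.78 FPKM in the H460 controls and 8.39, 8.85 and 8.81 after ISP-I. In A549 it held 2.09, 1.88 and 2.69 FPKM in the controls and 6.89, 7.13 and 6.81 after ISP-I. The control libraries of both lines lay at 2.69 FPKM or less and the treated ones at 6.81 or more. Its log2 changes were 1.80 ± 0.10 (adjusted p = 1.81e-06) and 1.31 ± 0.10 (adjusted p = 2.08e-05). FNIP2, the paralogue of FNIP1, was called in neither line, with means of 1.25 ± 0.095 and 2.60 ± 0.602 FPKM in H460 and 0.895 ± 0.142 and 1.30 ± 0.049 FPKM in A549. FLCN and FNIP1 are each overlapped on the same strand by another listed gene (AC055811.2 at up to 27 reads, AC008695.1 at 0 reads in every library). FLCN is also overlapped on the opposite strand by MPRIP, at 849 to 10719 reads, and the strand setting is not given. MPRIP stood at 17.4 to 20.3 FPKM in H460 controls and 3.11 to 4.04 after ISP-I. In A549 it stood at 36.4 to 39.6 and 22.8 to 26.4 FPKM. The absolute levels of FLCN and FNIP1 are therefore uncertain.

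Of the 3 MiT/TFE genes, MITF rose in both lines, TFE3 was called in H460 and TFEB was called in neither. MITF held 1.26, 0.976 and 1.06 FPKM in the H460 controls and 7.35, 8.17 and 5.30 after ISP-I. In A549 it held 4.34, 4.42 and 3.53 FPKM in the controls and 17.8, 16.7 and 17.3 after ISP-I. A549 was the higher line both before and after treatment, and untreated A549 lay below every treated H460 library. The log2 changes were close, 1.90 ± 0.15 in H460, with an adjusted p of 1.11e-05, and 1.85 ± 0.09 in A549, with an adjusted p of 1.94e-06.

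TFE3 was the most abundant of the 3 per length. It held 56.8, 63.7 and 63.1 FPKM in the H460 controls and 184, 164 and 177 after ISP-I, and in A549 38.2, 37.3 and 44.6 FPKM in the controls and 61.7, 59.7 and 63.2 after ISP-I. The treated A549 level was thus near the untreated H460 level. Its log2 change of 1.501 ± 0.12 in H460 was called (adjusted p = 1.19e-05), and that of 0.61 ± 0.08 in A549 (adjusted p = 0.00034) was short of the fold threshold. The difference between the lines was 0.89 (adjusted p = 0.00013), also short of it.

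TFEB held 1.62, 1.63 and 1.94 FPKM in the H460 controls and 1.997, 1.76 and 2.11 after ISP-I, groups that overlapped, with a log2 change of 0.11 ± 0.10 (adjusted p = 0.34). In A549 its controls held 0.816, 0.698 and 1.43 FPKM and its treated libraries 0.399, 0.199 and 0.280, with every treated library below every control. The log2 change there was -0.60 ± 0.13 with an adjusted p of 0.0051, short of the fold threshold with a pseudocount of 1; with a pseudocount of 0.1, and in limma voom on recovered reads, TFEB was called lower in A549. Without A549 control library 3 the A549 change was -0.44 (adjusted p = 0.0011). The difference between the lines was 0.72 (adjusted p = 0.0038), short of the fold threshold. The 21 to 40 reads behind each treated value make this one of the less precise estimates.

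**Figure D3:**
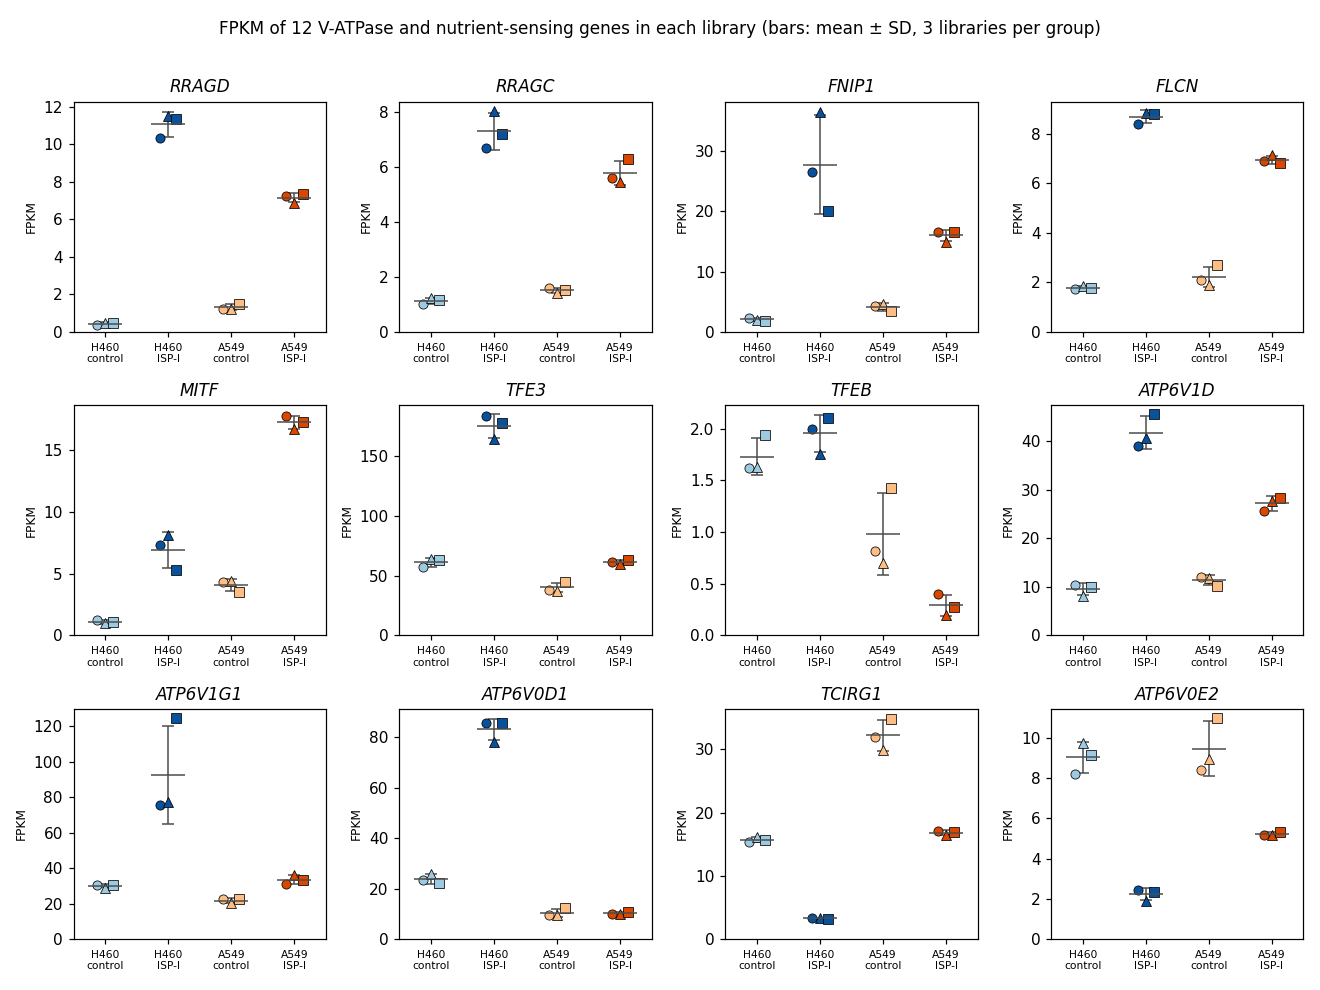
FPKM (linear axes from 0) of 12 members in each of the 12 libraries, with the mean and SD of the 3 libraries per group; circles, triangles and squares are libraries 1, 2 and 3. RRAGD, RRAGC, FNIP1, FLCN, MITF and ATP6V1D show no overlap between control and ISP-I in either line, TFEB is lower after ISP-I in A549 and overlaps in H460, and ATP6V0D1 is near 10 FPKM in A549 with and without ISP-I.

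SLC38A9, the arginine-sensing transporter, was called in neither line. Its control libraries held 1.71, 1.46 and 1.17 FPKM and its ISP-I libraries 0.805, 0.422 and 0.412, with no overlap, and the log2 change was -0.67 ± 0.13 (adjusted p = 0.0016), short of the fold threshold. In A549 the controls held 2.17, 2.51 and 1.99 FPKM and the treated libraries 1.90, 2.15 and 1.83, which overlapped (log2 change -0.12, adjusted p = 0.27). With a pseudocount of 0.1 and with voom it was called lower in H460.

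Among V1 subunits of the pump, 6 of the 12 tested in H460 were called higher and none lower, with a median log2 change of 1.01, where 10.5% and 15.2% of all tested genes were called. The 6 were ATP6V1D, ATP6V1G1, ATP6V1C1, ATP6V1B2, ATP6V1H and ATP6V1E1, all parts of the stalks or regulators except ATP6V1B2 of the head. In A549, 2 of 11 were called higher, ATP6V1D and ATP6V1F, and none lower, with a median of 0.60, where 4.2% and 3.51% of all genes were called.

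ATP6V1D, the central rotor, held 10.4, 8.12 and 10.1 FPKM in the H460 controls and 39.1, 40.7 and 45.6 after ISP-I. In A549 it held 12.1, 11.9 and 10.2 FPKM in the controls and 25.5, 27.7 and 28.4 after ISP-I. Controls of both lines shared a range and treated H460 lay above treated A549. The log2 changes were 2.03 ± 0.13 (adjusted p = 3.27e-06) and 1.19 ± 0.08 (adjusted p = 1.22e-05).

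ATP6V1G1, a peripheral stalk subunit, held 30.7, 29.0 and 30.6 FPKM in the H460 controls and 75.7, 77.5 and 125 after ISP-I, where 125 is library 3. In A549 it held 22.3, 20.1 and 22.6 FPKM in the controls and 31.0, 35.9 and 33.3 after ISP-I. The groups did not overlap in either line. The log2 change in H460 was 1.55 ± 0.19 (adjusted p = 0.00013) and 1.32 without library 3, where it was still called; in A549 it was 0.60 (adjusted p = 0.00034).

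The other 4 subunits called in H460 had log2 changes of 1.15 (ATP6V1E1) to 1.48 (ATP6V1C1), and without library 3 ATP6V1C1 stood at 1.66 and ATP6V1B2 at 1.41, above the 1.32 of ATP6V1G1. ATP6V1C1, which helps to hold V1 on V0, went from 7.54 ± 1.15 to 23.2 ± 5.69 FPKM, and ATP6V1H, a regulator of the assembled pump, from 6.03 ± 0.693 to 16.0 ± 0.917 FPKM. ATP6V1E1, of the peripheral stalk, went from 22.7 ± 1.74 to 51.3 ± 2.64 FPKM. ATP6V1B2, the widely expressed B subunit, went from 12.2 ± 0.379 to 34.9 ± 1.45 FPKM in H460, and in A549 from 12.2 ± 0.321 to 14.7 ± 0.558 FPKM. The A549 difference in ATP6V1B2 had an adjusted p of 0.013, which rose to 0.057 without ISP-I library 1.

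ATP6V1A, which carries the catalytic site, was measured at 11.9 ± 1.17 FPKM in H460 controls and 11.4 ± 0.956 after ISP-I, and at 12.5 ± 0.155 and 13.7 ± 1.18 FPKM in A549. Its log2 changes of -0.06 and 0.12 had adjusted p values of 0.69 and 0.21, and the sign in H460 turned under the other scalings. ATP6V1A and ATP6V1B2, whose products sit in equal number in the head, thus had H460 log2 changes of -0.06 and 1.45. ATP6V1F, a small rotor subunit of 762 bases, was called in A549 (15.4 ± 3.43 to 39.5 ± 3.06 FPKM, log2 change 1.32) and not in H460 (24.5 ± 4.71 to 45.6 ± 8.72 FPKM, log2 change 0.87); the difference between the lines had an adjusted p of 0.15.

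The V0 sector moved in both directions. Of 8 tested V0 genes in H460, 2 were called higher (ATP6V0D1 and ATP6V0A2) and 2 lower (TCIRG1 and ATP6V0E2). Of all tested genes in H460, 10.5% were called higher and 15.2% lower. Of 9 V0 genes in A549 none was called, beside 4.2% higher and 3.51% lower among all genes. ATP6V0D1 (chr16:67438014-67481181), the d subunit that couples the rotor to the ring, held 23.3, 26.0 and 22.2 FPKM in the H460 controls and 85.5, 78.3 and 85.7 after ISP-I. In A549 it held 9.47, 9.44 and 12.2 FPKM in the controls and 10.1, 10.0 and 10.8 after ISP-I. It rose in H460, with a log2 change of 1.76 ± 0.12 (adjusted p = 3.81e-06), while the A549 groups overlapped (log2 change 0.00, adjusted p = 0.99).

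TCIRG1 (chr11:68039025-68050895), the a3 subunit that is best known from the acid-secreting membrane of osteoclasts, held 15.3, 16.1 and 15.6 FPKM in the H460 controls and 3.32, 3.33 and 3.20 after ISP-I. In A549 it held 31.9, 29.98 and 34.9 FPKM in the controls and 17.1, 16.5 and 17.0 after ISP-I. No treated library overlapped a control of its own line, and treated A549 lay just above untreated H460. It fell in H460 by 1.96 ± 0.10 on the log2 scale (adjusted p = 1.21e-06), a 4.78-fold lower mean FPKM. The A549 change was -0.90 ± 0.07 (adjusted p = 2.58e-05), short of the fold threshold.

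ATP6V0E2, the less abundant e subunit, held 8.22, 9.74 and 9.13 FPKM in the H460 controls and 2.45, 1.89 and 2.36 after ISP-I. In A549 it held 8.39, 8.96 and 10.98 FPKM in the controls and 5.18, 5.16 and 5.34 after ISP-I. Both treated groups lay below their controls, and the log2 changes were -1.63 ± 0.12 in H460 (adjusted p = 7.26e-06), which was called, and -0.74 ± 0.10 in A549 (adjusted p = 0.00037), which was not.

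ATP6V0A2, the a2 subunit, went from 2.87 ± 0.13 to 6.96 ± 0.763 FPKM in H460, a log2 change of 1.04 that was 0.99 without ISP-I library 1 and then no longer past the fold threshold. ATP6V0A1, the a1 subunit, stood at 6.73 ± 0.282 and 11.7 ± 1.89 FPKM in H460 (log2 change 0.71) and 6.63 ± 0.340 and 7.23 ± 0.444 FPKM in A549. ATP6V0B, the c″ ring subunit, held 27.7, 22.9 and 57.0 FPKM in the treated H460 libraries; its log2 change was 0.07 (adjusted p = 0.84) with library 3 and -0.31 (adjusted p = 0.043) without it. ATP6V0E1 held 65.8, 68.1 and 113 FPKM there, and its log2 change was 0.30 (adjusted p = 0.23) with and 0.05 (adjusted p = 0.70) without library 3. In A549, ATP6V0B changed by 0.37 (adjusted p = 0.096 in limma) with control library 3 and by 0.59 (adjusted p = 4.15e-05) without it. ATP6V0E1 changed by 0.29 (adjusted p = 0.043) with and by 0.40 (adjusted p = 0.00019) without that library.

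ATP6V0C, the main ring subunit, was counted at no more than 0.476 FPKM and 10 reads in any library. It is overlapped on the same strand by AC093525.1 and AC093525.2, which were at 0 in every library, and how reads in more than 1 gene were treated is not given in the sources used here, so its value is not read as a level. Its log2 change in H460 was 0.23 (adjusted p = 0.036) with library 3 and 0.18 (adjusted p = 0.095) without it. The accessory proteins were called in neither line: ATP6AP1 stood at 44.05 ± 1.92 and 47.3 ± 4.43 FPKM in H460, and ATP6AP2 at 9.93 ± 0.995 and 6.68 ± 0.172 FPKM.

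The Ragulator genes did not move as a block in H460. LAMTOR3 was called higher, from 4.19 ± 0.963 to 12.02 ± 2.04 FPKM (log2 change 1.33), and LAMTOR2 was called lower. LAMTOR2 held 34.1, 34.5 and 35.6 FPKM in the H460 controls and 8.81, 6.97 and 25.0 after ISP-I, where 25.0 is library 3. In A549 it held 20.9, 19.5 and 29.7 FPKM in the controls and 21.3, 27.8 and 20.4 after ISP-I, which overlapped. Its log2 change in H460 was -1.50 ± 0.38 (adjusted p = 0.0071) with library 3 and -2.01 (adjusted p = 6.73e-07) without it. With no filter on low genes the adjusted p was 0.060 and the call was lost.

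The H460 values of LAMTOR4 (1936 bases) and LAMTOR5 (2388 bases) depended on library 3. LAMTOR4 held 23.0, 27.2 and 20.6 FPKM in the controls and 14.5, 13.9 and 41.1 after ISP-I; its log2 change was -0.19 (adjusted p = 0.65) with and -0.68 (adjusted p = 0.0010) without library 3. LAMTOR5 changed by -0.34 (adjusted p = 0.26) with and by -0.67 (adjusted p = 0.0020) without it. LAMTOR1, the membrane anchor, stood at 18.5 ± 1.92 and 28.0 ± 6.89 FPKM in H460. In A549 no Ragulator gene was called, beside 4.2% higher and 3.51% lower among all genes. The log2 changes there ran from 0.00 (LAMTOR2) to 0.83 (LAMTOR3). Without A549 control library 3 they ran from 0.18 (LAMTOR2) to 0.74 (LAMTOR3). The adjusted p in limma then went from 0.031 to 4.35e-06 for LAMTOR1 and from 0.029 to 1.57e-06 for LAMTOR4. For LAMTOR5 it went from 0.22 to 0.013.

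Whether a member changed differently in the 2 lines was tested as the H460 change minus the A549 change over all 12 libraries. The difference was called positive for 4 members and negative for 2, of 39 tested, beside 5.93% positive and 10.1% negative among 13953 genes. ATP6V0D1 had a difference of 1.76 ± 0.14 (adjusted p = 1.25e-06), FNIP1 1.46 ± 0.24 (adjusted p = 0.00031), RRAGD 1.25 ± 0.12 (adjusted p = 4.14e-06) and ATP6V1B2 1.20 ± 0.10 (adjusted p = 1.4e-06). The negative differences were LAMTOR2, at -1.49 ± 0.48 (adjusted p = 0.019), and TCIRG1, at -1.07 ± 0.11 (adjusted p = 5.41e-06). Under median-of-ratios scaling 9 members were called positive and none negative, beside 1298 and 825 of all 13953 genes. TCIRG1 then stood at -0.81 and LAMTOR2 at -1.20 with an adjusted p of 0.055. LAMTOR2 was also lost without H460 ISP-I library 1 (adjusted p = 0.051) and with no filter on low genes (adjusted p = 0.060), and TCIRG1 was at -0.72 and not called under quantile normalization. At any fold, 18 members had a positive and 5 a negative difference with an adjusted p below 0.05, beside 18.6% and 34.7% of all genes. Without H460 ISP-I library 3 the number of members called was 8 rather than 6. Over all genes 959 were then called positive and 1688 negative, rather than 827 and 1407. For MITF the difference was 0.06 ± 0.18 (adjusted p = 0.81).

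Before treatment few members differed between the lines by more than the fold threshold, and many differed by less. Of 38 members tested, 1 was called higher in untreated H460 than in untreated A549 and 1 lower, beside 5.64% and 8.78% of 13532 genes. At any fold, 10 were higher and 10 lower with an adjusted p below 0.05, beside 28.6% and 31.6% of all genes, and 18 did not pass. ATP6V0D1 was higher in H460 (23.9 against 10.4 FPKM, log2 difference 1.14, adjusted p = 4.69e-05). MITF was lower in H460 (1.10 against 4.10 FPKM, log2 difference -1.28, adjusted p = 1.38e-05). TCIRG1, at 15.7 against 32.3 FPKM, had a log2 difference of -0.99, just inside the threshold.

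Since FPKM is scaled by gene length, paralogues of 1 subunit were set side by side as shares of their summed FPKM in each library, a measure that does not change with scaling between libraries. A share can still change with a length-dependent difference such as that of H460 ISP-I library 3. Paralogues differ in length, as with ATP6V0E1 (1609 bases) and ATP6V0E2 (6751 bases). How far this moved the shares was not tested. The a-subunit shares of TCIRG1, ATP6V0A1 and ATP6V0A2 differed between control and ISP-I without overlap in both lines. ATP6V0A4 made up 0.15% ± 0.07 and 0.16% ± 0.03 in H460, which overlapped. In H460, TCIRG1 made up 61.2%, 61.8% and 63.0% of a-subunit FPKM in the controls and 14.4%, 13.9% and 16.9% after ISP-I. In A549 it made up 75.1%, 74.2% and 76.1% in the controls and 54.3%, 56.0% and 55.7% after ISP-I. ATP6V0A1 went from 26.6% ± 0.59 to 53.1% ± 2.35 in H460 and from 15.5% ± 0.26 to 23.8% ± 0.88 in A549 (SD, n = 3), and ATP6V0A2 from 11.3% ± 0.42 to 31.7% ± 1.05 and from 7.69% ± 0.84 to 20.1% ± 0.52. The summed a-subunit level was 25.3 ± 0.66 and 21.98 ± 2.68 FPKM in H460, and 42.9 ± 2.73 and 30.4 ± 1.07 FPKM in A549.

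The makeup of the Rag pairs was read in the same way. RRAGD made up 25.3%, 28.7% and 29.1% of the RagC/D sum in the H460 controls and 60.7%, 58.9% and 61.3% after ISP-I, and 46.4% ± 3.46 and 55.4% ± 1.26 in A549. RRAGB made up 10.4% ± 0.26 of the RagA/B sum in H460 controls and 31.6% ± 2.20 after ISP-I, whereas in A549 it made up 7.90% ± 0.98 and 8.91% ± 0.76. The RagC/D sum itself went from 1.56 ± 0.19 to 18.4 ± 1.27 FPKM in H460, and in A549 from 2.82 ± 0.18 to 12.9 ± 0.65 FPKM, against a RagA/B sum of 46.7 ± 3.88 and 42.4 ± 4.73 FPKM in H460. RRAGA and RRAGB transcripts together therefore exceeded those of RRAGC and RRAGD per length in every group. ATP6V0E2 made up 12.3% ± 1.56 of the e-subunit sum in H460 controls and 2.78% ± 0.78 after ISP-I, and 12.4% ± 0.79 and 6.02% ± 0.44 in A549. With 3 libraries against 3, the exact permutation test cannot go below 0.10, which is the two-sided p of every share difference between control and ISP-I named here except RRAGB in A549 (p = 0.3).

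**Figure D4:**
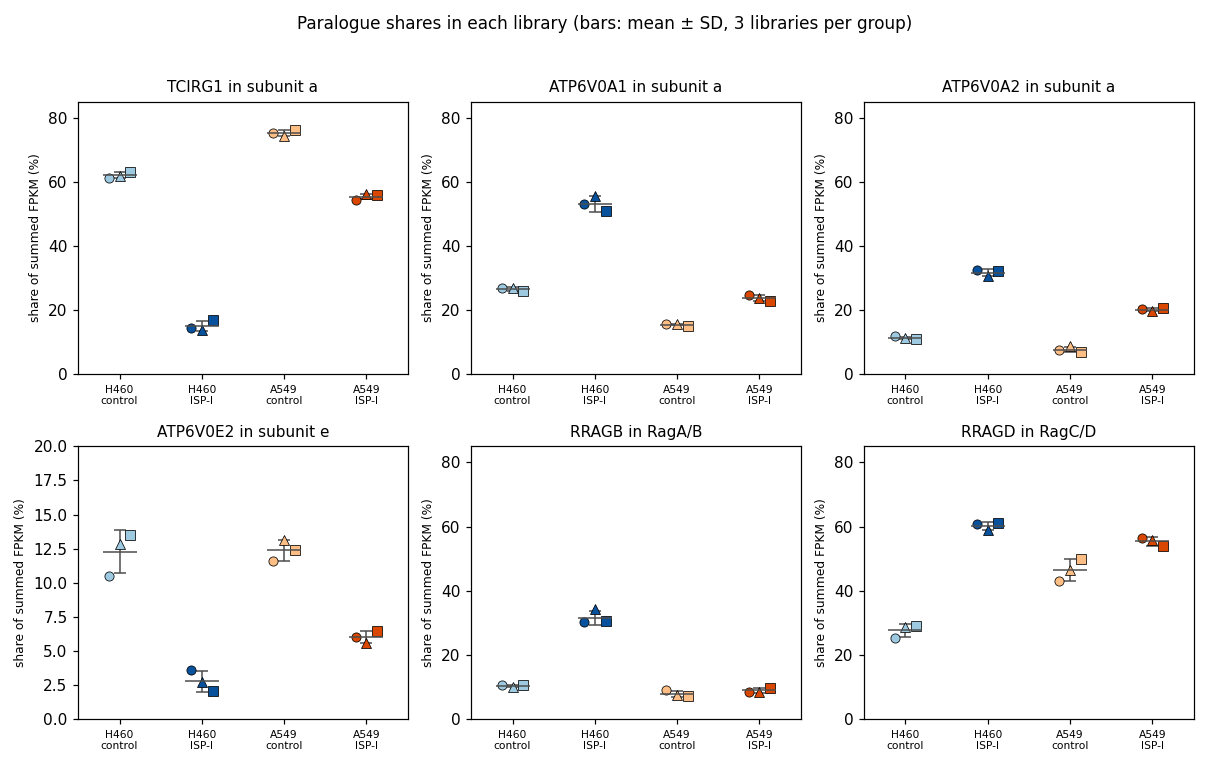
Share of the summed FPKM of a subunit or Rag pair (percent, vertical axes from 0; the ATP6V0E2 panel ends at 20%) in each library, with mean and SD of 3 libraries per group. The TCIRG1 mean goes from 62.0% to 15.1% in H460 and from 75.1% to 55.4% in A549, RRAGD lies above 50% after ISP-I in both lines, and RRAGB goes from 10.4% to 31.6% in H460.

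In the B, C, E, G and d subunits 1 paralogue supplied nearly everything. ATP6V1B2, ATP6V1C1, ATP6V1E1, ATP6V1G1 and ATP6V0D1 each made up at least 90.3% of their subunit on average in every group. The tissue-restricted paralogues were near 0: ATP6V1B1, known from kidney, stood at 0.378 FPKM or less on average, and ATP6V1C2 at 0.340 FPKM or less. ATP6V1C2 is overlapped on the opposite strand by PDIA6, at 2451 to 4981 reads, and ATP6V1B1 on the same strand by VAX2, at 29 to 117 reads. ATP6V0A4 was at 0.733 ± 0.078 FPKM in untreated A549, 0.228 ± 0.065 FPKM after ISP-I, and below the limit for testing in H460. ATP6V1E2 was at 1.04 and 0.497 FPKM in H460 and 2.25 and 1.44 FPKM in A549. Its adjusted p values in limma were 0.00077 and 0.0080, with no call. ATP6V1E2 is overlapped on the opposite strand by RHOQ, at 387 to 495 reads in H460 controls and 200 to 225 after ISP-I. Its level is therefore uncertain. ATP6V0D2, ATP6V1G3 and ATP6V1G2-DDX39B were tested in neither line, and ATP6V1G3 and ATP6V1G2-DDX39B had no read in any library. ATP6V1G2, tested in H460 alone, and ATP6V1FNB averaged 0.304 FPKM or less in every group.

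The rest of the pathway was read from 6 further lists. Of 36 tested genes of V-ATPase assembly, the GATOR1, KICSTOR and GATOR2 complexes, the cytosolic amino acid sensors, mTORC1, RHEB and TSC, 3 were called higher (8.33%) and 4 lower (11.1%) in H460, below the shares of all genes given above. In A549, 0 of 35 were called higher and 2 lower, or 5.71% lower against 3.51% of all genes. At any fold, an adjusted p below 0.05 in limma was reached in H460 by 7 (19.4%) higher and 18 (50%) lower genes. The shares of all genes there were 27.6% and 41.5%. In A549, 14 (40%) were higher and 9 (25.7%) lower, against 30.5% and 27.0% of all genes. The GATOR2 list had no call in either line.

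Among the sensors, the leucine sensor gene SESN2 went from 4.54 ± 0.590 to 16.2 ± 2.07 FPKM in H460 (log2 change 1.63) and from 5.34 ± 0.506 to 11.2 ± 0.279 FPKM in A549 (0.95, not called). The arginine sensor gene CASTOR2 was called lower in both lines, from 3.04 ± 0.137 to 0.278 ± 0.029 FPKM in H460, and in A549 from 5.69 ± 0.317 to 0.649 ± 0.081 FPKM; near-identical copies of this gene exist, so its count is uncertain. In GATOR1 and KICSTOR, NPRL2 was called lower (9.21 ± 0.736 to 3.45 ± 0.836 FPKM) and C12orf66 higher (3.77 ± 0.624 to 9.91 ± 0.854 FPKM) in H460. In the mTORC1 list, MLST8 (25.0 ± 2.61 to 11.7 ± 1.86 FPKM) and TSC2 (6.87 ± 0.802 to 2.92 ± 0.217 FPKM) were called lower in H460. AKT1S1 (20.8 ± 1.05 to 43.1 ± 7.21 FPKM) was called higher. NCOA7, of the assembly list, was called lower in A549 (12.3 ± 2.73 to 4.92 ± 0.289 FPKM).

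Lysosomal genes that are often used as TFEB targets formed the sixth list, 23 genes outside the pump. In H460, 11 were called higher and 1 lower, and in A549 4 and 1, with median log2 changes of 0.95 and 0.17. These are 47.8% and 4.35% in H460 and 17.4% and 4.35% in A549, against the shares of all genes given above. The autophagy receptor gene SQSTM1 went from 265 ± 17.8 to 1636 ± 264 FPKM in H460, and in A549 from 147 ± 8.39 to 904 ± 31.8 FPKM. The sialidase gene NEU1 went from 8.35 ± 0.720 to 55.5 ± 8.24 FPKM in H460, and in A549 from 5.06 ± 0.363 to 19.3 ± 0.675 FPKM. The protease gene TPP1 (1.27 ± 0.138 to 13.9 ± 2.41 FPKM) and the calcium channel gene MCOLN1 (5.71 ± 0.319 to 21.3 ± 2.88 FPKM) were called in H460. In A549 they stood at 6.56 ± 0.524 and 7.47 ± 0.085 FPKM and at 4.02 ± 0.574 and 3.67 ± 0.307 FPKM. GAA, the acid glucosidase, was called lower in both lines (11.2 ± 1.12 to 4.45 ± 0.213 FPKM in H460).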

How the data were processed

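RNA-seq libraries of H460 and A549 cells, control or ISP-I (10 µM, 48 h; 3 per group), were compared. Per the submitters' processing notes the authors used FastQC, HISAT2, HTSeq 0.9.1 and hg38, and they deposited FPKM values per gene with the gene length in bases (an annotation value, classed as other); the annotation release, strand setting and treatment of reads in more than 1 gene are not given in the sources used here. The table was read with 4 broken lines left out. FPKM times length gave whole multiples of 1 read (tolerance 0.01), so reads per library could be recovered. Libraries are numbered in column order within a group.

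Differences were tested with limma 3.58.1 (R 4.3.3) on log2(FPKM + 1), with the prior variance fitted against mean expression and genes averaging under 0.1 FPKM left out, within each line, between untreated lines, and as an interaction over all 12 libraries; p was adjusted by Benjamini-Hochberg over all tested genes, and a call needed a fold over 2 and an adjusted p under 0.05. Shares of paralogues were compared by exact two-sided permutation (smallest p 0.1). Python 3.11.15 and scipy 1.17.1 were used. The script was tested on simulated data. Depth, 14225849 to 17874422 reads, limits genes with few reads. Promoter windows came from RefSeq (GRCh38.p14). 39 of 43 members had the same start and end in GENCODE on hg38.

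The members and gene lists were chosen with earlier results of these data known. Full values are given for called members, up to 12 by size of change, plus TFEB, TFE3, MITF, FLCN and SLC38A9; from other lists, called members and at most the 3 with the smallest adjusted p. Alternatives were pseudocount 0.1, a minimum of 1 FPKM, no minimum, median-of-ratios scaling, quantile normalization, voom on recovered reads, any fold, a single fit of 12 libraries, and leaving out each library.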

Additional observations from a re-analysis of the deposited data

Results flagged for a closer look

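Of 39 tested members, 6 changed differently in the 2 lines by the interaction test of limma over all 12 libraries. Each was past a difference of 1 on the log2(FPKM + 1) scale. By the same rule 5.93% of all 13953 tested genes had a positive and 10.1% a negative difference, so such calls were also found outside the members. At any fold, 18 members had a positive and 5 a negative difference with an adjusted p below 0.05 in limma. The shares of all genes at any fold were 18.6% and 34.7%. The H460 change exceeded the A549 change by 1.76 for ATP6V0D1, 1.46 for FNIP1, 1.25 for RRAGD and 1.20 for ATP6V1B2, and all 3 treated H460 libraries lay above all 3 H460 controls for each of these genes. For LAMTOR2 the difference was -1.49 and for TCIRG1 -1.07, with all 3 treated H460 libraries below all 3 H460 controls. The LAMTOR2 difference rests on 1404 bases of gene length and on a group in which library 3 stood apart; it was -2.01 without that library. It was not called with no filter on low genes (adjusted p = 0.060), and the TCIRG1 difference was -0.72, short of the fold threshold, under quantile normalization.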

How the results depend on the processing

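Of 993 values of the 39 members tested in each line recomputed under the alternatives, 952 kept their direction and their side of the threshold. Members called lower in H460 numbered 7 at any fold change, against 3, beside 5576 and 2047 of all 13423 tested genes. Members called higher in A549 numbered 21 at any fold, against 7. Those called lower numbered 6 at any fold and 2 with a pseudocount of 0.1 or with voom (ATP6V0A4 and TFEB), against none. Of all 13705 genes tested in A549, 575 were called higher, and 4185 were higher at any fold. Those called lower were 481, and they were 3702 at any fold, 1062 with a pseudocount of 0.1 and 1322 with voom. Members whose change differed between the lines numbered 12 with a pseudocount of 0.1, 15 with voom and 23 at any fold, against 6. Those that differed between untreated lines numbered 6, 5 and 20, against 2. The calls over all genes moved as well. Of 13953 genes in the interaction, 827 were called positive and 1407 negative. These became 1451 and 2788, 2068 and 1861, and 2596 and 4841 under the same 3 alternatives. Between untreated lines, 763 and 1188 of 13532 genes became 1363 and 2251, 1558 and 2305, and 3869 and 4276. Why these counts moved was not tested, apart from the any-fold counts, which drop the fold threshold.

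Direction turned in genes with changes near 0. In H460, ATP6V1A turned to 0.21, 0.021 and 0.22 and ATP6V1C2 to 0.056, 0.030 and 0.30 under median-of-ratios scaling, quantile normalization and voom, and LAMTOR4 to 0.075 and 0.062 under the first and the last. In A549, ATP6V1C2 turned to -0.0037, -0.052 and -0.0060 under these 3. With each library left out in turn, the values whose sign depended on the library ran in H460 from -0.31 to 0.33 for ATP6V0B, from -0.12 to 0.017 for ATP6V1A, from -0.11 to 0.064 for ATP6V1C2 and from -0.68 to 0.064 for LAMTOR4. In A549 they ran from -0.059 to 0.11 for ATP6V0D1, from -0.042 to 0.061 for ATP6V1C2 and from -0.14 to 0.18 for LAMTOR2. The cause was not tested.

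No paired analysis was possible because the table's columns carry no replicate number that matches the titles. Genes under 1 FPKM rest on few reads, and a pseudocount of 1 shrinks their change.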
